A study of Mus musculus with 6 samples.

Results

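A set of 10 genes around the protease gene Adamts4 were followed in mouse tailbuds: 6 genes of ADAMTS metalloproteinases that cleave aggrecan or related proteoglycans (Adamts4, Adamts1, Adamts5, Adamts9, Adamts15 and Adamts20), the inhibitor gene Timp3, and the proteoglycan genes Acan, Vcan and Bcan. They are 10 of 37310 gene identifiers in the count files, and 9 of them were among the 15471 genes tested. The set was chosen by gene name around Adamts4, and Adamts4 itself was chosen from its difference between the genotypes in these libraries, so its values in that comparison are a description and not a test. The libraries hold polyadenylated RNA of tailbuds at embryonic day 9.5, cut off in front of the last somite, from 3 WT/WT and 3 Sd/Sd samples on the outbred CD-1 background. Sd is Danforth's short tail, a semidominant insertion near Ptf1a. The mutation is present in the whole embryo, the embryos' sex is not given, and some samples pool tailbuds of 2 embryos, without a record of which.

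ADAMTS proteases are secreted zinc enzymes that bind the pericellular matrix and cut the core proteins of large chondroitin sulphate proteoglycans. Aggrecan, versican and brevican (Acan, Vcan and Bcan) belong to the hyalectans, which bind hyaluronan through their amino-terminal domain and hold water in the matrix. Versican is the abundant hyalectan of loose embryonic mesenchyme, aggrecan that of cartilage and of the notochord and its sheath, and brevican that of the nervous system. TIMP-3, the product of Timp3, is a matrix-bound inhibitor that blocks ADAMTS-4 and ADAMTS-5.

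The 6 proteases have the catalytic site in common, and its coding bases show how far the paralogs have diverged there. Capitals mark the codons of the 3 histidines that hold the zinc ion and of the catalytic glutamate, and each run of 36 bases is read 5′ to 3′ on the coding strand of GENCODE M21 transcripts (GRCm38).
Adamts4: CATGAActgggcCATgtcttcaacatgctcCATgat
Adamts1: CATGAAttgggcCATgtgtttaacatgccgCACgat
Adamts15: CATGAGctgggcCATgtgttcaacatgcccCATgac
Adamts9: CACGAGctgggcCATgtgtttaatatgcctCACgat
Adamts20: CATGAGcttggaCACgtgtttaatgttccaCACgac
Adamts5: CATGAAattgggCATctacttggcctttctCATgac
Of the 36 bases of Adamts4, Adamts15 shared 32, Adamts1 30, Adamts9 28, Adamts20 23 and Adamts5 21. In every one of the 6 genes an intron interrupts this site. It lies after base 10 in Adamts4, Adamts1, Adamts5 and Adamts15, whose transcripts have 8 or 9 exons, and after base 17 in Adamts9 and Adamts20, whose transcripts have 40 and 39. The Adamts4 site spans chr1:171253210-171253918 on the plus strand, over exons 3 and 4. The Adamts1 and Adamts5 sites lie on the minus strand at chr16:85799188-85799545 and chr16:85878012-85887826, and those of Adamts15, Adamts9 and Adamts20, also on the minus strand, at chr9:30911252-30911690, chr6:92905282-92908493 and chr15:94353675-94355296. The longest exact run that Adamts4 transcripts shared with another of these proteases was 31 bases, with Adamts9, and the next was 22 bases, with Adamts15.

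The bonds cut in the substrates are shown in the same way. Capitals mark the 2 codons, the first for glutamate, on either side of the bond at which ADAMTS proteases are known to cut.
Acan: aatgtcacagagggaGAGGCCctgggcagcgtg
Vcan: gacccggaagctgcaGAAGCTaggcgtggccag
Bcan: gcgatggagagcGAGTCTcgtggggccatc
These sites lie at chr7:79091046-79091078 (plus strand, exon 7), chr13:89693206-89693238 (minus strand, exon 8) and chr3:87994194-87994223 (minus strand, exon 7) on GRCm38. In aggrecan and versican the residue after the bond is alanine, and in brevican it is serine.

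The libraries held 41788978 to 62296689 counts. All 8 tailbud progenitor markers, such as T and Tbx6, were measured, with summed levels of 337 to 853 CPM (counts relative to the TMM-scaled library total) across the 6 libraries. Sd/Sd replicate 3 stood apart in somite and sclerotome markers, whose sum was 34.3 CPM there and 201 to 431 CPM in the other 5 libraries. Ptf1a, beside which the Sd insertion lies, was at 0.0237 to 0.0948 CPM in WT and 13.8 to 20.6 CPM in Sd/Sd. The labels do not say whether the samples of a genotype are from different litters, and the p-values below therefore cover only the variation among these 6 libraries. In whole tailbuds, fewer cells of a type and less RNA per cell cannot be told apart.

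Adamts4 (ENSMUSG00000006403.6, chromosome 1), which encodes aggrecanase-1, was higher in every Sd/Sd library than in any WT library. It measured 6.52, 5.64 and 6.61 CPM in WT replicates 1 to 3 and 18.9, 14.0 and 19.2 CPM in Sd/Sd replicates 1 to 3. The WT values lay close together (coefficient of variation 8.59%), and Sd/Sd replicate 2 was the lowest of its group while still over 2-fold above the highest WT library. From 921 counts in WT against 2599 in Sd/Sd, the fitted log2 fold change was 1.47 (95% interval 1.11 to 1.83), a 2.78-fold higher level. Adamts4 is the only one of the 9 tested genes past an adjusted p of 0.05 (edgeR quasi-likelihood test, adjusted p = 0.0210), and the only one whose groups did not overlap. Among all genes tested, 0.0582% passed that threshold and 7.68% had groups that did not overlap, and since Adamts4 was picked from this comparison nothing is read from these counts. With 1 library left out, the log2 fold change lay between 1.39 and 1.61. The call held when Sd/Sd replicate 2 was left out (edgeR adjusted p = 0.00581). It was lost when WT replicate 1 (0.166), 2 (0.214) or 3 (0.133) or Sd/Sd replicate 1 (0.231) or 3 (0.0514) was left out. It was also lost with limma-voom (adjusted p = 0.104) and with edgeR's robust option off (0.0545).

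**Figure D1:**
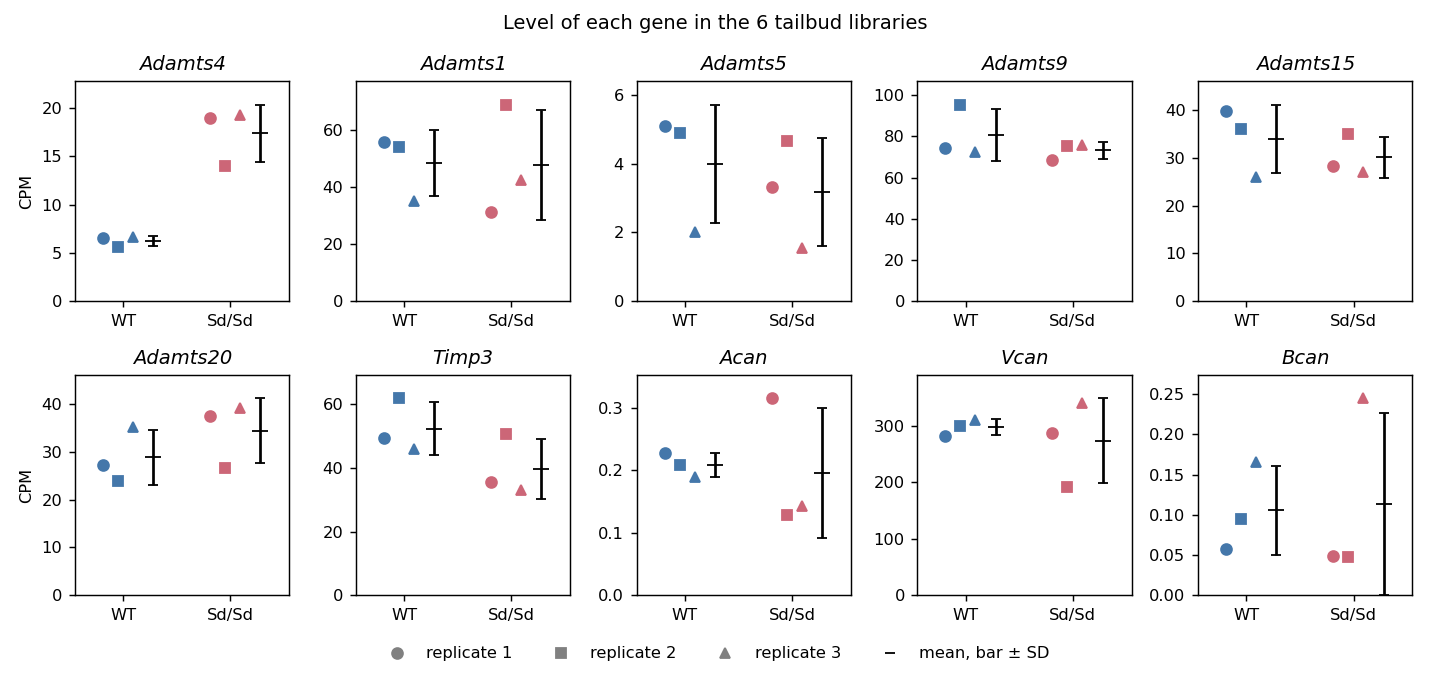
CPM (linear axis from 0) of each of the 10 genes in the 3 WT and 3 Sd/Sd libraries; symbols give the replicate number, and the black mark and bar the group mean ± SD. Adamts4 lies between 5.64 and 6.61 CPM in WT and between 14.0 and 19.2 CPM in Sd/Sd, while the groups of the other 9 genes overlap.

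No difference was called in the genes next to Adamts4 on chromosome 1. Of the 5 annotated genes on either side, 7 were tested and 0 passed (edgeR; 0 also at an unadjusted p under 0.05), with log2 fold changes of -0.06 to 0.55. The highest of these was Fcer1g, an immunoglobulin receptor subunit gene of myeloid cells, at 0.365 ± 0.0922 CPM in the WT and 0.535 ± 0.101 CPM in the Sd/Sd libraries (SD, n = 3). Its groups did not overlap, by a narrow margin, with the highest WT library at 0.4361 CPM and the lowest Sd/Sd library at 0.4367 CPM. The same held, in either direction and by any margin, for 7.68% of all genes tested.

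By Pearson correlation of log2 CPM over the 6 libraries, the genes closest in pattern to Adamts4 among 12834 with a mean of at least 1 CPM were Nfam1, Nek9, Gm13344, Ptf1a and Leo1, with r of 0.998 to 0.978. The libraries fall into 2 groups for Adamts4, so these values rank likeness and carry no p. Nfam1, which encodes an immune receptor with a signalling motif, measured 6.41, 6.05 and 6.75 CPM in the WT and 11.9, 9.63 and 11.8 CPM in the Sd/Sd libraries (log2 fold change 0.80, edgeR adjusted p = 0.331). Ptf1a, the transcription factor gene at the mutation, measured 20.6, 13.8 and 19.6 CPM in Sd/Sd replicates 1 to 3, and Gm13344, a noncoding gene beside it, 2.74, 2.20 and 3.08 CPM. Both passed the mean of at least 1 CPM through the Sd/Sd libraries alone. Nek9, a mitotic kinase gene, and Leo1, of the PAF1 transcription elongation complex, had log2 fold changes of 0.13 and 0.17 and very even WT levels, at 161 ± 0.782 and 74.2 ± 0.0824 CPM (SD, n = 3).

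Summed markers of cell types in which ADAMTS genes are often expressed overlapped between the genotypes. Summed over 8 markers each, endothelium stood at 514 to 582 CPM in WT and 435 to 604 CPM in Sd/Sd, and smooth muscle and pericytes at 526 to 636 and 518 to 573 CPM. All 8 endothelial markers had negative log2 fold changes (median -0.23), and Sd/Sd replicates 1 and 2 had sums of 439 and 435 CPM, below every WT library. Of the 8 smooth muscle and pericyte markers, 6 were negative (median -0.37). Sox18 of the first list and Cnn1 of the second were lower in every Sd/Sd library than in any WT library. Macrophage markers summed to 5.09 to 6.56 CPM in WT and 4.67 to 6.34 CPM in Sd/Sd, and 3 of the 8 (Csf1r, Cd68 and Fcer1g) passed the filter on low counts. Fcer1g was higher in every Sd/Sd library than in any WT library, by a narrow margin, and the other 2 had negative log2 fold changes. None of these 24 markers was at 0 in all libraries. Of the 19 that were tested, 0 passed, and 2 had an unadjusted edgeR p under 0.05, against 2.90% of all genes tested. Sox18, Cnn1 and Fcer1g were the ones whose groups did not overlap, against 7.68% of all genes tested. The 7 notochord markers summed to 192 to 233 CPM in WT and 97.5 to 222 CPM in Sd/Sd. T, which is also in the tailbud progenitor list, held most of each sum, at 144 to 184 CPM in WT and 77.1 to 203 CPM in Sd/Sd. All 7 had negative log2 fold changes (median -0.58). Of them, 4 (Noto, Shh, Foxa2 and Nog) were lower in every Sd/Sd library than in any WT library, where 7.68% of all genes tested had groups that did not overlap. Shh, a signalling gene of the notochord and of hindgut endoderm, was the 1 marker past the threshold, at 15.1 ± 1.55 CPM in the WT and 5.38 ± 1.25 CPM in the Sd/Sd libraries (SD, n = 3; log2 fold change -1.49, edgeR adjusted p = 0.0438), and its call was lost when any 1 of the 6 libraries was left out (edgeR adjusted p from 0.0615 to 0.263). The 7 hindgut endoderm markers all had negative log2 fold changes (median -0.31), and Foxa1, Cldn6, Epcam and Cldn4 were lower in every Sd/Sd library than in any WT library, with 0 past the threshold (edgeR; 4 at an unadjusted p under 0.05, against 2.90% of all genes tested, and 7.68% of those genes with groups that did not overlap). Their sum overlapped between the genotypes, at 459 to 593 CPM in WT and 408 to 605 CPM in Sd/Sd. The part of any of these cell types in the Adamts4 difference was not tested.

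The other protease genes did not pass the test, each with an edgeR adjusted p = 1.00. Adamts1 (ENSMUSG00000022893.8), which encodes a protease of versican and aggrecan active in vessels and heart, measured 55.9, 54.1 and 35.0 CPM in the WT and 31.4, 68.9 and 42.6 CPM in the Sd/Sd libraries. Both its highest and its lowest library were Sd/Sd, and the log2 fold change of -0.02 had a 95% interval of -0.90 to 0.86. Its neighbour Adamts5 (ENSMUSG00000022894.5), the gene of aggrecanase-2, measured 5.08, 4.88 and 2.01 CPM in the WT and 3.32, 4.65 and 1.55 CPM in the Sd/Sd libraries. The groups overlapped widely (a log2 fold change of -0.33, 95% interval -1.44 to 0.77). For Adamts1 and Adamts5 alike, the intervals reach beyond a 1.5-fold difference in either direction. Adamts1 and Adamts5 lie next to each other on chromosome 16, and the 7 tested genes within 5 places of the pair had log2 fold changes of -0.11 to 0.13.

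Adamts9, Adamts15 and Adamts20 were measured more evenly. Adamts9 (ENSMUSG00000030022.8), whose product cleaves versican and is needed for palate and limb web remodelling together with ADAMTS-20, measured 74.5, 95.4 and 72.5 CPM in the WT and 68.3, 75.6 and 75.8 CPM in the Sd/Sd libraries. Only WT replicate 2 lay apart from the other 5 libraries. Its log2 fold change of -0.14 had the narrowest interval of the set, -0.39 to 0.11. Adamts15 (ENSMUSG00000033453.7), a versican-cleaving protease gene of embryonic muscle, measured 39.8, 36.1 and 26.0 CPM in the WT and 28.3, 35.0 and 27.1 CPM in the Sd/Sd libraries (a log2 fold change of -0.17, 95% interval -0.56 to 0.21). Adamts20 (ENSMUSG00000022449.8), the gene mutated in belted mice, measured 27.3, 24.0 and 35.3 CPM in the WT and 37.5, 26.6 and 39.1 CPM in the Sd/Sd libraries (a log2 fold change of 0.25, 95% interval -0.18 to 0.69). Adamts4 and Adamts20 were the 2 genes of the set with a positive log2 fold change. Whether the difference of Adamts4 exceeds that of another protease gene was not tested, because Adamts4 was chosen for it.

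Timp3 (ENSMUSG00000020044.7) measured 49.4, 61.9 and 45.9 CPM in the WT and 35.5, 50.6 and 33.1 CPM in the Sd/Sd libraries. Sd/Sd replicates 1 and 3 lay below every WT library, and Sd/Sd replicate 2 lay within the WT range. The log2 fold change of -0.40 did not pass the test (SE 0.18, 95% interval -0.83 to 0.04, edgeR unadjusted p = 0.0669, adjusted p = 1.00). With 1 library left out it lay between -0.26 (without WT replicate 2) and -0.61 (without Sd/Sd replicate 2, edgeR adjusted p = 0.566). Timp3 was lower in Sd/Sd than in WT in each of the 3 pairs of libraries with the same number, and with the replicate number as a block its edgeR adjusted p was 0.205. Adamts5 was also lower and Adamts20 higher in Sd/Sd in all 3 pairs, each with an edgeR adjusted p = 1.00 under the block. The labels do not say what the replicate numbers mark, so these may not be true pairs. How often genes in general keep the same direction in all 3 pairs was not counted, and nothing is read from these directions.

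Among the substrates, Vcan was abundant and Acan and Bcan were close to the limit of detection. Vcan (ENSMUSG00000021614.9) measured 281, 300 and 310 CPM in the WT and 287, 192 and 340 CPM in the Sd/Sd libraries. The WT libraries were alike (coefficient of variation 4.95%), and the Sd/Sd libraries held both the lowest and the highest value of all 6 (27.5%). The log2 fold change was -0.12 (95% interval -0.62 to 0.37, edgeR adjusted p = 1.00), and without Sd/Sd replicate 2 it was 0.08. Acan (ENSMUSG00000030607.6) had 12, 11 and 8 counts in WT and 13, 8 and 7 counts in Sd/Sd, a ratio of summed levels of 0.873 (95% exact counting interval 0.505 to 1.50). Bcan (ENSMUSG00000004892.8) had 3, 5 and 7 counts in WT and 2, 3 and 12 counts in Sd/Sd and fell below the filter on low counts, with a ratio of 1.10 (0.515 to 2.36). Sd/Sd replicate 3 held 12 of the 17 Bcan counts of Sd/Sd, and without it the ratio was 0.474 (0.135 to 1.37), an alternative chosen after seeing the data. These intervals cover counting error only. For Acan, the 95% interval of the edgeR fit, which includes the variation among libraries, was wider, from 0.388-fold to 2.15-fold. A difference in Acan or Bcan within these intervals was not detectable at this depth.

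**Figure D2:**
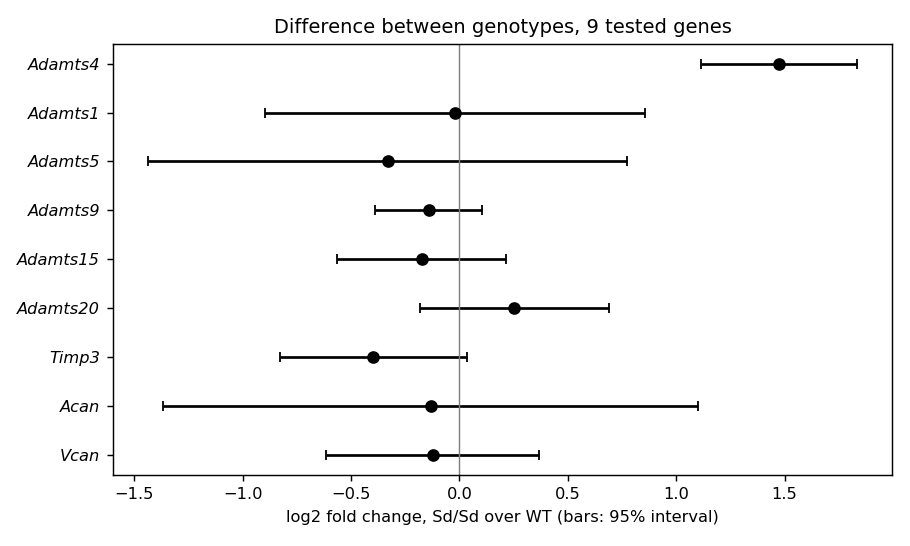
Log2 fold change of Sd/Sd over WT (horizontal axis) for the 9 tested genes, with 95% intervals from the edgeR fit. The interval of Adamts4, 1.11 to 1.83, lies to the right of 0, and those of the other 8 genes include 0.

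Levels of different genes were set side by side per kilobase of annotated exon (CPM per kb), a scale that depends on exon lengths from GRCm38. In WT, Vcan stood at 20.5 ± 1.02 CPM per kb, Timp3 at 6.43 ± 1.03, Acan at 0.0279 ± 0.00255 and Bcan at 0.0260 ± 0.0136 (SD, n = 3). The WT order of the protease levels in CPM per kb was Adamts1 (9.12 ± 2.18), Adamts9 (5.37 ± 0.845), Adamts15 (3.28 ± 0.692), Adamts20 (3.21 ± 0.646), Adamts4 (1.30 ± 0.112) and Adamts5 (0.370 ± 0.159). Adamts15 and Adamts20 did not differ beyond their spread. In Sd/Sd, Adamts4 stood at 3.61 ± 0.612 CPM per kb, within the spread of Adamts20 (3.82 ± 0.757) and close to Adamts15 (2.90 ± 0.410). Acan and Bcan did not differ from each other beyond their spread in either genotype, and Vcan was the most abundant of the 10 genes in both.

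Of the summed CPM per kb of the 6 proteases, Adamts4 held 5.61%, 4.82% and 7.08% in WT replicates 1 to 3 and 18.2%, 10.5% and 16.5% in Sd/Sd replicates 1 to 3. Adamts1 held the largest share in every library, from 27.4% to 46.9%. The sum itself ranged from 19.4 to 24.3 CPM per kb in WT and from 21.6 to 27.7 in Sd/Sd, so that the groups overlapped. Among the hyalectans Vcan, Acan, Bcan and Ncan (neurocan), Vcan held 98.5% ± 0.190 of the summed CPM per kb in WT and 98.2% ± 0.827 in Sd/Sd (SD, n = 3).

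**Figure D3:**
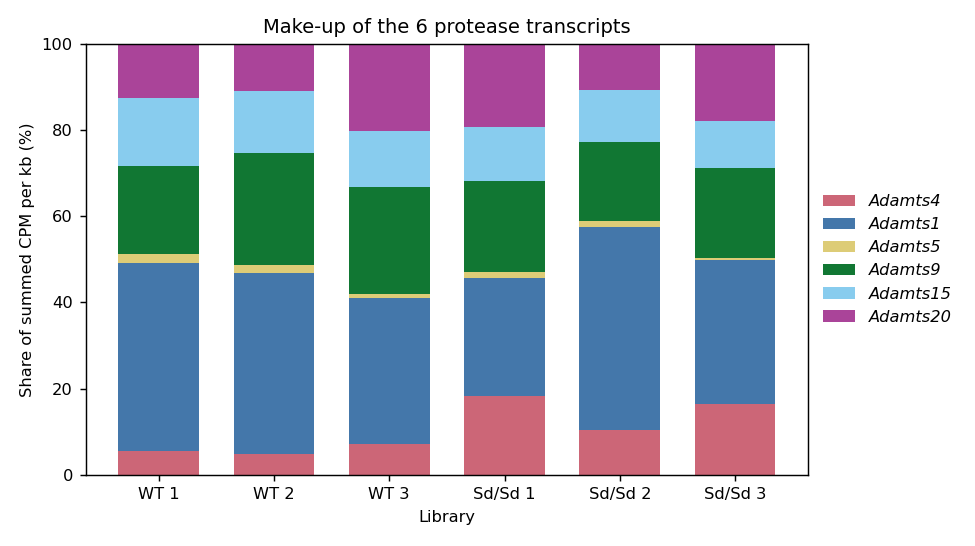
Share of each of the 6 protease genes (stacked bars, %) in their summed CPM per kb, 1 bar per library. The Adamts4 share, the lowest segment, is 4.82% to 7.08% in the WT bars and 10.5% to 18.2% in the Sd/Sd bars.

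Several of these genes divided the libraries in a way that crossed the genotypes. Adamts1, Adamts5, Adamts15 and Timp3 were all highest in WT replicates 1 and 2 and Sd/Sd replicate 2. Adamts20 had the opposite order, with its 3 highest libraries in WT replicate 3 and Sd/Sd replicates 1 and 3. Of all genes tested, 9.88% had the first set of libraries as their 3 highest and 9.28% the second. Markers of primitive erythroid cells, such as the embryonic globin Hbb-bh1, followed the first set. Their sum was 4051 and 8438 CPM in WT replicates 1 and 2 and 9576 CPM in Sd/Sd replicate 2, against 3454 CPM in WT replicate 3 and 1655 and 2672 CPM in Sd/Sd replicates 1 and 3. Tailbud progenitor markers followed the second set, with sums of 733, 605 and 853 CPM in WT replicate 3 and Sd/Sd replicates 1 and 3, against 522, 567 and 337 CPM in the other 3 libraries. The first set was also highest in smooth muscle and pericyte markers, with sums of 624, 636 and 573 CPM. WT replicate 3 and Sd/Sd replicates 1 and 3 had sums of 526, 518 and 542 CPM. Macrophage markers summed to 6.56, 5.70 and 6.34 CPM in the first set, against 5.09, 4.95 and 4.67 CPM in the other libraries. Matrix metalloproteinase genes and cartilage and notochord sheath genes, listed below, also had their highest sums in the first set. This grouping was noticed after the values were seen. The part of any of these cell types in the levels of Adamts1, Adamts5, Adamts15, Adamts20 and Timp3 was not tested. The estimated biological variation was 29.3% for Adamts1 and 41.6% for Adamts5, against a median of 14.7% over all genes tested, and 10.8% for Adamts9 and 17.4% for Adamts4.

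**Figure D4:**
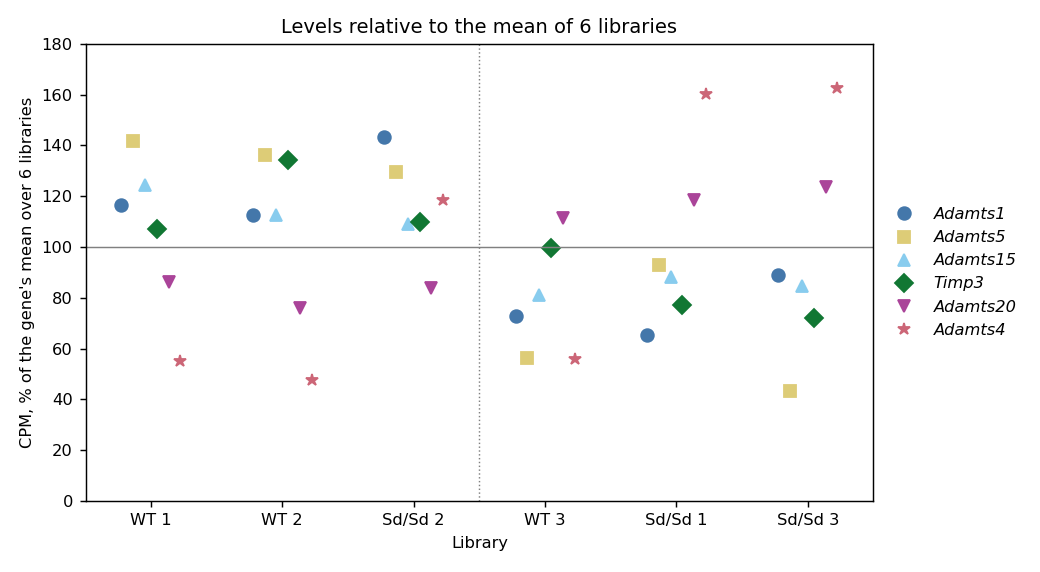
CPM of 6 genes as a percentage of each gene's mean over the 6 libraries (vertical axis), with WT replicates 1 and 2 and Sd/Sd replicate 2 left of the dotted line. Adamts1, Adamts5, Adamts15 and Timp3 lie above 100% on the left and at or below it on the right, Adamts20 does the reverse, and Adamts4 is above 100% in the 3 Sd/Sd libraries alone.

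Around the 10 genes, 7 lists of matrix genes were read in the same fit, and 0 of their 99 tested members passed the threshold (edgeR adjusted p; 6 at an unadjusted p under 0.05, against 2.90% of all genes tested). The 19 other ADAMTS and ADAMTS-like genes were all tested, with 7 positive and 12 negative log2 fold changes and a median of -0.03, against a median of 0.00 over all genes tested. Adamts16, a protease gene of the developing kidney, measured 0.607, 0.416 and 0.426 CPM in the WT and 0.146, 0.224 and 0.163 CPM in the Sd/Sd libraries (a log2 fold change of -1.42 with an SE of 0.44; adjusted p = 1.00 by edgeR). Adamts13, whose product cuts von Willebrand factor, had a log2 fold change of -1.30 (SE 0.58), Adamtsl3 2.10 (SE 1.26) and Adamtsl5 -0.42 (SE 0.41), all with mean levels under 1 CPM in both genotypes.

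Inhibitors, activators and cofactors of these proteases had 8 of 11 tested members negative, with a median log2 fold change of -0.22. Timp4, a further TIMP inhibitor gene, measured 1.88, 1.67 and 2.01 CPM in the WT and 0.873, 0.767 and 0.999 CPM in the Sd/Sd libraries (a log2 fold change of -1.07 with an SE of 0.26; adjusted p = 0.915 by edgeR). Furin, the proprotein convertase gene whose product activates many ADAMTS zymogens, measured 93.1, 102 and 96.0 CPM in the WT and 84.6, 81.5 and 78.6 CPM in the Sd/Sd libraries (a log2 fold change of -0.25 with an SE of 0.07; adjusted p = 1.00 by edgeR). Timp4, Furin and the syndecan gene Sdc4 (log2 fold change -0.27, SE 0.12) were below every WT library in all Sd/Sd libraries without passing the test. These are 3 of the 11 tested members, against 7.68% of all genes tested with groups that did not overlap. Timp2 had a log2 fold change of -0.27 (SE 0.12) with overlap. Timp1 is listed at 0 in every library, as are all 2269 identifiers of chromosome X, so its level is not known.

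Hyaluronan, link protein and hyalectan genes had 4 positive and 9 negative members of 13 tested (median log2 fold change -0.06). Has2, the hyaluronan synthase gene of the early embryo, measured 46.7 ± 2.66 CPM in the WT and 44.8 ± 0.969 CPM in the Sd/Sd libraries (SD, n = 3), a log2 fold change of -0.06 (SE 0.07). Itih2 and Itih5, genes of the inter-alpha-inhibitor heavy chains that are coupled to hyaluronan, differed by -1.53 (SE 0.53) and 0.69 (SE 0.34) on the log2 scale, and the link protein gene Hapln4 -0.35 (SE 0.41). Matrix metalloproteinase genes were negative in all 9 tested members (median -0.11), led by Mmp24 at -1.37 (SE 0.67) from 0.290 ± 0.0851 CPM in WT, with Mmp11, Mmp14 and Mmp19 at -0.21, -0.11 and -0.32.

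Genes that build chondroitin sulphate chains had 6 positive and 14 negative members of 20 tested (median -0.03) and lay within a narrow range, from -0.33 to 0.06. Chst15, a sulphotransferase gene, had the smallest p, at 41.0 ± 3.39 CPM in the WT and 32.5 ± 5.07 CPM in the Sd/Sd libraries (SD, n = 3), a log2 fold change of -0.33 (SE 0.12, adjusted p = 1.00 by edgeR). Other matrix proteoglycans had 5 positive and 9 negative members of 14 tested (median -0.11), with Spock2 and Sdc3 at -0.22 and -0.14 and Sdc2 and Hspg2 (perlecan) at -0.12 and -0.16. Cartilage and notochord sheath genes had 7 positive and 6 negative members of 13 tested (median 0.02). Col9a1, a collagen IX chain gene, measured 25.9 ± 3.65 CPM in the WT and 36.3 ± 8.97 CPM in the Sd/Sd libraries (log2 fold change 0.49, SE 0.18), Col9a3 had a log2 fold change of -0.47 (SE 0.23), and Matn3 and Comp had -0.26 and -0.41.

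**Figure D5:**
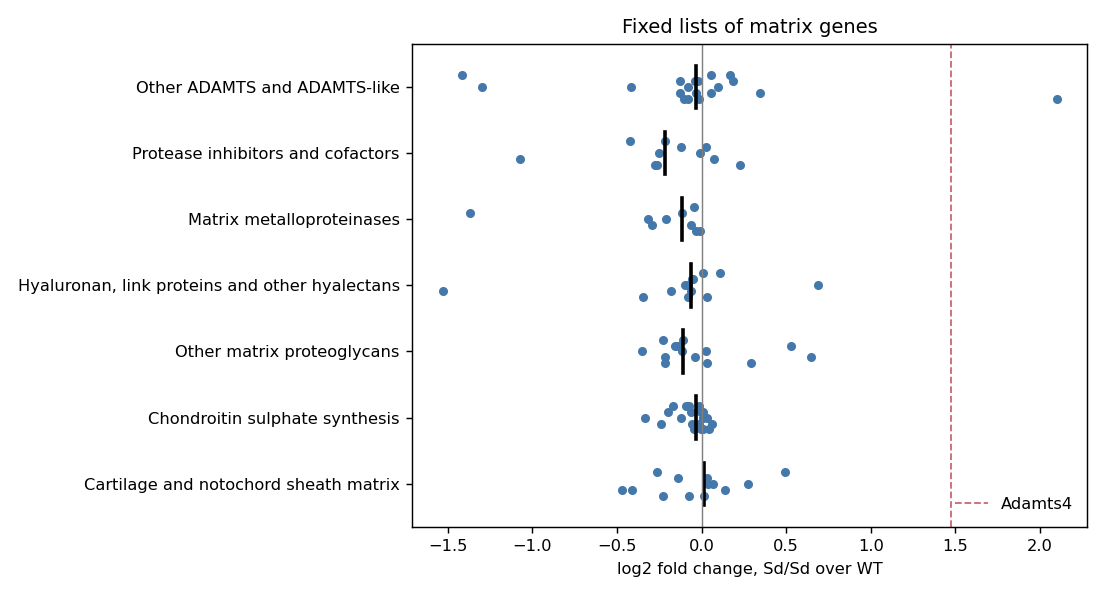
Log2 fold change of Sd/Sd over WT for each tested gene (points) of 7 lists of matrix genes, with the median of each list as a black bar and Adamts4 as a dashed line at 1.47. The list medians lie between -0.22 and 0.02, and Adamtsl3, at 2.10 and under 1 CPM, is the 1 gene beyond the Adamts4 line.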

How the data were processed

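The deposited files hold raw counts per gene for 6 tailbud libraries, 3 WT and 3 Sd. Per the submitters' processing notes, the tools were STAR 2.5.2b, bcl2fastq 2.17.1.14, SAMtools, CASAVA and DESeq2, and the build mm9. No source used here gives the counter, its strand setting or the annotation. GENCODE M21 (GRCm38) supplied symbols for 32620 of 37310 identifiers, the order of neighbours and exon lengths.

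The 15471 genes that passed filterByExpr (at least 10 counts, scaled to the median library size, in at least 3 libraries, and 15 in total; 99.967% of counts) were compared across all genes with edgeR 4.0.16 in R 4.3.3 (TMM, robust dispersions, glmQLFTest, 2-sided, Benjamini-Hochberg, threshold 0.05). The standard error is the log2 fold change over the square root of F. Log2 CPM used a prior count of 2. Scripts were tested on simulated data.

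The genes, lists and tests were chosen with earlier results of these data known. Named by rule were all 10 genes, up to 4 members per list (past the threshold, then smallest p; marker lists are given as sums), 5 genes of like pattern and 5 neighbours on each side.

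One result on Adamts4 is not reported here.

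Over 15471 genes, deviations from the group means correlated at 0.194, 0.144 and 0.275 between libraries of the same number, as did WT replicate 1 with Sd replicate 2 (0.182); the labels do not say what the numbers mark, and the pairing rests on these correlations alone.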

Additional observations from a re-analysis of the deposited data

How the results depend on the processing

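Alternatives were DESeq2 1.42.0, limma-voom 3.58.1, RLE size factors, no filter, a stricter filter (1 CPM in 3 libraries), the robust option off, the replicate block and leaving out each library. Against 9 genes past the threshold, DESeq2 gave 34, no filter 14, the replicate block 12, and limma-voom and the robust option off 3 each; leaving out 1 library gave 2 to 6. Of the 10 genes, 0 passed with limma-voom and with the robust option off, and 0 or 1 with a library left out; Adamts4 was the 1 gene that passed elsewhere. Its log2 fold change was 1.44 with limma-voom (adjusted p = 0.104), 1.47 with the robust option off (0.0545), 1.46 with the replicate block (0.00229) and 1.39 to 1.61 with a library left out. With a library left out, Adamts1 ran from -0.38 to 0.21 and turned sign without WT replicates 1 and 2 and Sd replicates 1 and 3. Acan ran from -0.62 to 0.11 and turned without Sd replicates 2 and 3, and Vcan ran from -0.31 to 0.078 and turned without Sd replicate 2. Acan has no value under the stricter filter. The replicate block changed no call among the 10 genes. Depth limits Acan and Bcan, with 59 and 32 counts in all. The cause of the lost calls was not tested.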
